A study of Danio rerio with 2 samples.

Results

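RARaa is a zebrafish retinoic acid receptor. Peaks of a myc-tagged RARaa along chromosome 4 are described here, as called by chromatin immunoprecipitation followed by sequencing (ChIP-seq) against input chromatin. All lines of the deposited peak list that lie on chromosome 4 were taken, which gave 276 of 4858 lines. They were placed in bins of 5 Mb by the position of the summit, and summits at or above 27 Mb were compared with those below 27 Mb. The part from 27 Mb held 163 lines and the part below 27 Mb held 113. A line is 1 summit of 1 called interval. As an interval can have several summits, the 276 lines of chromosome 4 correspond to 271 distinct intervals. The 4 intervals with more than 1 summit were all located in the part from 27 Mb. On the other numbered chromosomes, 77 of 4276 intervals had more than 1 summit. So small a count on chromosome 4 was not read as a difference between the parts.

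The RARaa-myc ChIP group and the input group each contained 1 library. Both came from zebrafish embryos injected with mRNA coding for myc-tagged RARaa, labelled 10.5 hours post fertilization (hpf) and exposed to retinoic acid (RA) for 1 hour, with fixation in 1.85% PFA for 10 minutes. By the methods of the study, RA was added at 10.5 hpf and the chromatin was taken after the hour of exposure, later than the label. The embryos were pooled and the receptor was expressed from injected mRNA, so the signal belongs to whole embryos and to an added receptor. The input was chromatin set aside before the pulldown with the anti-myc antibody, and a pulldown from embryos without the tagged receptor was not analysed here. After removal of duplicate tags, 39480982 ChIP tags and 51506879 input tags remained, and the input was scaled by 0.767 to the ChIP depth. With 1 library of each kind there was no test between groups. Intervals given below are 95% intervals that treat tags or lines as independent draws, and they hold no error between batches of embryos.

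RA receptors are nuclear receptors that bind DNA as heterodimers with retinoid X receptors, mostly at direct repeats of a short half-site. They act as transcription factors whose activity is set by RA, and they control patterning of the hindbrain, the trunk and the foregut endoderm in vertebrate embryos. Zebrafish chromosome 4 is known for an unusual long arm that replicates late and is rich in repeats, with large families of immune receptor and zinc finger genes and with 5S ribosomal RNA genes. The 27 Mb split was taken as the approximate start of this arm, and no annotation of genes or repeats in the Zv9 build was used to check it.

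Each line is described by 4 values. The pileup is the number of ChIP tags, extended to 200 bp, that cover the summit. The input background is the number of input tags expected there after scaling, and it cannot fall below the genome-wide level of 5.64 tags. The fold enrichment is the ratio of the 2 with a pseudocount of 1 added to each. The −log10 q-value gives the support for the peak after adjustment over the genome, and lines above 5 on this scale are called strong. In the whole list 59.2% of lines were strong. On chromosome 4, the strong lines numbered 135 of 276, or 48.9% with a 95% Wilson interval of 43.1 to 54.8%. On the other numbered chromosomes they numbered 2660 of 4368 (60.9%, 59.4 to 62.3%).

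Chromosome 4 stood at the edge of the range of the 25 chromosomes for several of these values. Its strong share was lower than that of each of the other 24 chromosomes, which ranged from 51.5% on chromosome 8 to 68.1% on chromosome 22. Its median fold enrichment of 3.17 was also below the range of the others, from 3.18 on chromosome 8 to 4.18 on chromosome 13. However, its interval of 3.04 to 3.37 included the value of chromosome 8. The 25 lines of 2 dense clusters described below, all at a fold enrichment of 2.19 or less, are part of this median. In contrast, its density of lines between the first and the last summit was 4.49 per Mb (3.98 to 5.05). This was above the range of 2.62 to 4.16 per Mb elsewhere. The highest of the others, chromosome 11, had an interval of 3.59 to 4.79, which overlapped that of chromosome 4. When the 2 dense clusters were left out on chromosome 4 only, its density was 4.08 per Mb and ranked 2 of 25, behind chromosome 11. The density of lines that were not strong was 2.29 per Mb on chromosome 4, against 1.15 to 1.78 per Mb elsewhere. The density of strong lines was 2.20 per Mb and ranked 9 of 25. Over the whole chromosome, the density of lines that were not strong was thus outside the range of the others, while that of strong lines was within it. The 2 parts of the chromosome differed in their density of strong lines, with 1.72 per Mb from 27 Mb and 2.83 per Mb below 27 Mb.

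The part from 27 Mb had the lower strong share. There, 60 of 163 lines were strong (36.8%, 29.8 to 44.4%), compared with 75 of 113 lines below 27 Mb (66.4%, 57.3 to 74.4%). The difference was -29.6 percentage points (95% Newcombe interval -40.2 to -17.7). Per Mb, the part from 27 Mb contained 1.72 strong lines (1.31 to 2.21) and the part below 27 Mb contained 2.83 (2.22 to 3.54). For lines that were not strong, the density was 2.95 per Mb from 27 Mb (2.41 to 3.58) and 1.43 per Mb below 27 Mb (1.01 to 1.97). As these opposite differences nearly cancelled, the density of all lines was similar, with 4.67 per Mb from 27 Mb (3.98 to 5.44) and 4.26 per Mb below it (3.51 to 5.12). The ratio of the densities was 1.10, and its interval of 0.857 to 1.41 included 1.

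To determine whether such a contrast was found elsewhere, each of the other chromosomes was divided at the same 27 Mb. The differences in the strong share ranged from -17.6 percentage points on chromosome 21 to 27.7 on chromosome 12, with a median of 0.592, so that the value of chromosome 4 was below all of them. The part of chromosome 4 from 27 Mb had the lowest strong share of the 25 such parts, the next being chromosome 8 with 46.9%. The part of chromosome 4 below 27 Mb ranked 5 of 25 from the top, among shares of 47.0 to 72.2% on the others. These ranks are a description, since a chromosome was not a replicate of another.

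**Figure D1:**
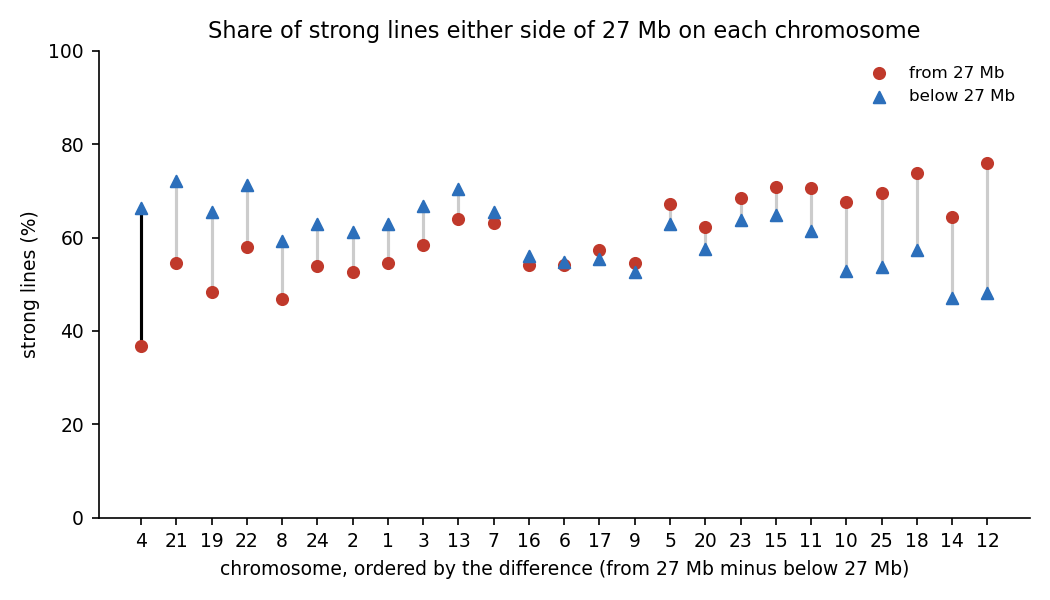
Share of strong lines (−log10 q above 5, in %) among lines from 27 Mb (circles) and below 27 Mb (triangles) on each of the 25 chromosomes, ordered by the difference. Chromosome 4, at the left with a black line, has 36.8% from 27 Mb and 66.4% below 27 Mb, the widest drop of the 25.

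The bins of 5 Mb showed how the strong lines were distributed along chromosome 4. In the 5 bins that cover the first 25 Mb, there were 21, 18, 26, 29 and 15 lines, of which 15, 13, 14, 22 and 10 were strong. The bin from 15 to 20 Mb was the richest of them, with a strong share of 75.9% (57.9 to 87.8%). The bin from 25 to 30 Mb contained 35 lines, the highest number of all, but 25 of these belonged to 2 dense clusters just past 28 Mb. Without the clusters 10 lines remained in that bin, and 4 of them were strong.

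The 6 bins that cover 30 to 60 Mb contained 20, 24, 24, 20, 23 and 19 lines, numbers like those of the first 25 Mb. Of these, 1, 9, 13, 9, 5 and 6 lines were strong. The lowest share was in the bin from 30 to 35 Mb, where 1 of 20 lines was strong (5%, 0.888 to 23.6%), and no fold enrichment exceeded 5.66. The highest was in the bin from 40 to 45 Mb, with 13 of 24 lines (54.2%, 35.1 to 72.1%), whose interval overlapped those of all 5 bins of the first 25 Mb. The part from 27 Mb was thus not uniform. The last 1.92 Mb up to the last summit contained 2 lines, neither of them strong.

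**Figure D2:**
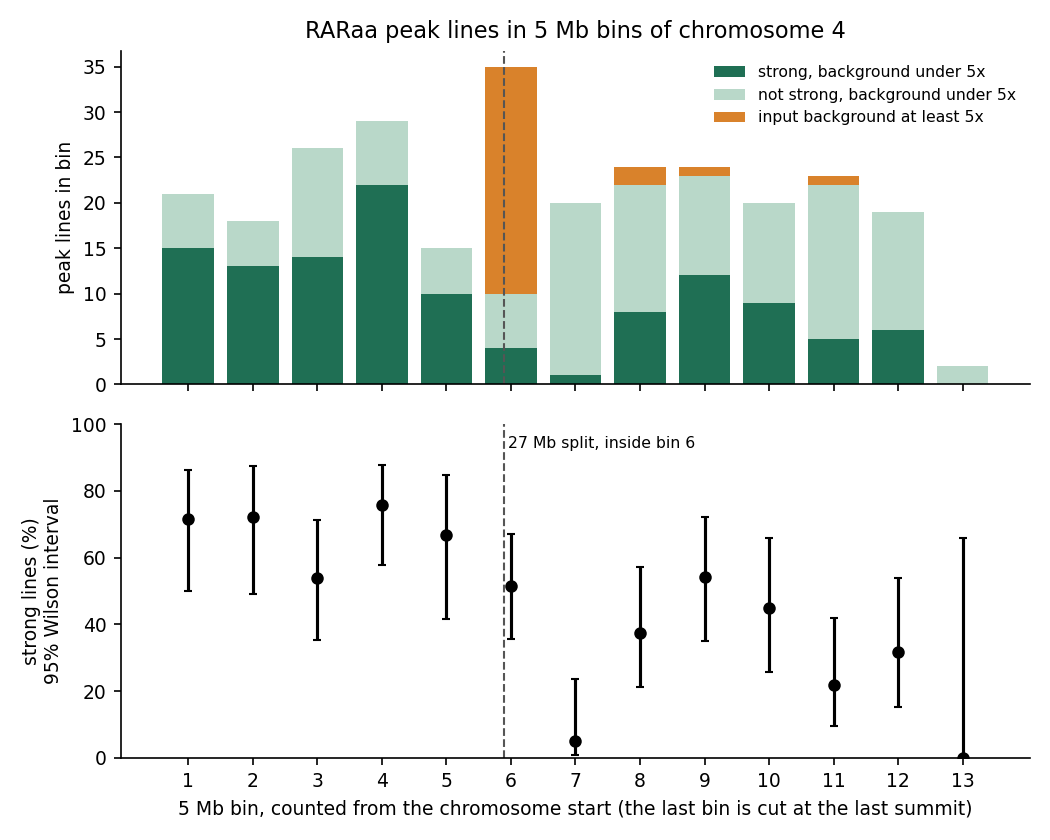
Number of RARaa peak lines in each 5 Mb bin of chromosome 4 (top), split into strong lines, lines that are not strong and lines at high input background (28.2 tags or more), and the strong share of each bin in % with 95% Wilson intervals (bottom). The dashed line marks the 27 Mb split. The bin from 25 to 30 Mb holds 35 lines, 25 of them at high input background, and the bin after it holds 1 strong line of 20.

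The fold enrichment differed in the same direction. Its median was 2.84 from 27 Mb and 4.10 below 27 Mb, a difference of -1.25. Lines that reached a 4-fold enrichment made up 43.5% of the whole list. They accounted for 20 of 163 lines from 27 Mb (12.3%, 8.09 to 18.2%) and for 59 of 113 lines below 27 Mb (52.2%, 43.1 to 61.2%). Lines enriched from 2-fold to under 3-fold, which made up 22% of the list, were in turn more frequent from 27 Mb, with 67 of 163 (41.1%, 33.8 to 48.8%), than below 27 Mb, with 21 of 113 (18.6%, 12.5 to 26.7%). Lines with a fold enrichment under 2, which made up 3.83% of the list, numbered 26 from 27 Mb and 0 below 27 Mb. Most of the 26 lay in the 2 dense clusters. Without these clusters, 5 of 138 lines from 27 Mb were under 2 (3.62%, 1.56 to 8.20%). On the other numbered chromosomes, where no cluster was left out, 120 of 4368 lines were under 2 (2.75%).

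The highest fold enrichments were less different between the parts. A value of at least 10, reached by 6.67% of the list, was found at 7 of 163 lines from 27 Mb (4.29%, 2.096 to 8.60%) and at 11 of 113 lines below 27 Mb (9.73%, 5.52 to 16.6%). The difference of -5.44 percentage points had an interval of -12.6 to 0.582, which included 0. With so few lines, a lower share from 27 Mb was neither shown nor excluded at this level. The contrast was wider in the middle of the range. Between 4 and 10, a range that held 36.8% of the list, there were 13 lines from 27 Mb (7.98%, 4.72 to 13.2%). Below 27 Mb there were 48 (42.5%, 33.8 to 51.7%).

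**Figure D3:**
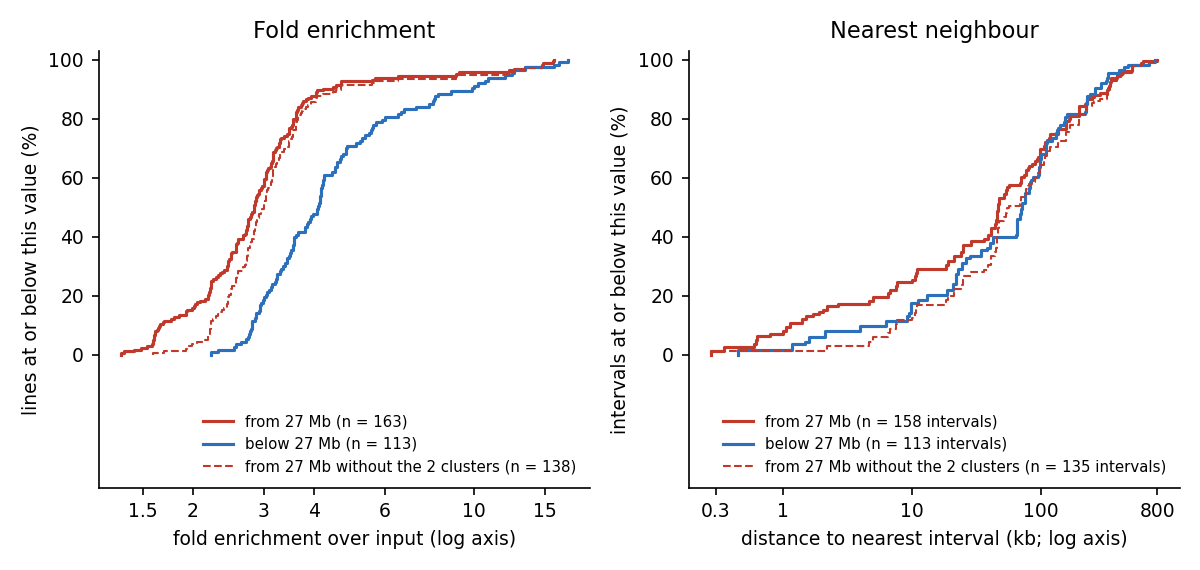
Cumulative share (in %) of lines by fold enrichment over input (left, log axis) and of distinct intervals by distance to the nearest interval in kb (right, log axis), for the part from 27 Mb, the part below 27 Mb, and the part from 27 Mb without its 2 dense clusters. The fold curves stay apart with and without the clusters (medians 2.84 and 3.00, against 4.10 below 27 Mb), while the median distance from 27 Mb is 46.8 kb with the clusters and 68.8 kb without them, against 71.4 kb below 27 Mb.

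The 5 lines with the highest fold enrichment from 27 Mb belonged to intervals with 1 summit and a background under 10 tags. The first was found at chr4:41496033-41496397 of Zv9, with 104 ChIP tags (95% Poisson interval 85.0 to 126) against an input background of 5.64 tags, the genome-wide level, and a fold enrichment of 15.8. The next, at chr4:46648062-46648453, had 111 ChIP tags against 6.13 input tags and a fold enrichment of 15.7. At chr4:38891107-38891469 the pileup was 159 tags (135 to 186) against 9.81 input tags, with a fold enrichment of 14.8. It carried the highest −log10 q-value of the part, 125.

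Of the other 2, that at chr4:40036808-40037161 had 97 ChIP tags against a background at the genome-wide level of 5.64 tags, with a fold enrichment of 14.8. That at chr4:51561980-51562387 had 125 ChIP tags against 8.43 input tags and a fold enrichment of 13.4. Their fold intervals overlapped, so these peaks were not ordered at this depth. All 7 lines from 27 Mb that reached a 10-fold enrichment were located between 38.9 and 51.6 Mb. Each interval had 1 summit, and the closest neighbour of any of them was 7.68 kb away. The first 11.9 Mb of the part, from 27 Mb to the first of these lines, contained none.

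Below 27 Mb, the highest fold enrichment was 17.1 at chr4:17734316-17734852, with 139 ChIP tags (117 to 164) against 7.21 input tags. It was followed by chr4:13140926-13141356, with 128 ChIP tags against 6.94 input tags and a fold enrichment of 16.2. The interval at chr4:16526059-16526463 had the highest pileup below 27 Mb, 172 tags (147 to 200) against 9.96 input tags, a fold enrichment of 15.8 and a −log10 q-value of 140, the highest on chromosome 4. Next came chr4:24208723-24209096, with 107 ChIP tags against 7.07 input tags and a fold enrichment of 13.4. The last of the 5 was chr4:10305009-10305357, with 102 ChIP tags against 7.21 input tags and a fold enrichment of 12.6. The best peaks of the 2 parts were of similar size, and the fold interval of the first line from 27 Mb, 12.9 to 19.1, overlapped that of the first line below 27 Mb, 14.4 to 20.1.

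For some peaks the nearest gene is named by a gene table of the study, which covers only genes that the study reported as regulated by RA treatment. All 5 of these peaks were below 27 Mb, where 113 of the 276 lines of chromosome 4 were located. Of them, 3 were placed in distal intergenic sequence with *ascl1a* as the gene. It encodes a proneural transcription factor of the basic helix-loop-helix family, which promotes the formation of neurons. These 3 peaks followed each other, with 78, 172 and 44 ChIP tags against 6.90, 9.96 and 6.91 input tags, and with fold enrichments of 10.0, 15.8 and 5.69. The middle one, at chr4:16526059-16526463, is the peak with the highest −log10 q-value of the chromosome. The first, at chr4:16516189-16516539, was 9.90 kb from it and the third, at chr4:16537302-16537545, was 11.2 kb from it, between midpoints.

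A peak in distal intergenic sequence at chr4:14932542-14932826, assigned to *col7a1l*, a gene of the collagen family, had 67 ChIP tags (51.9 to 85.1) against 7.36 input tags and a fold enrichment of 8.14. Another interval was located 1.60 kb away. The peak at chr4:4407715-4407995, in the promoter of *zgc:194209*, had 38 ChIP tags against 8.59 input tags and a fold enrichment of 4.07. All 5 peaks were strong, as were 66.4% of all lines below 27 Mb. With 5 peaks near selected genes, neither their position nor their strength was read as a result. As the table covers only some genes, the lack of a name for the other peaks says nothing of their position.

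Close to the split itself, 2 lines on each side are given, too few to show whether the values changed there. The last 2 summits below 27 Mb belonged to intervals at chr4:26903139-26903338, with a fold enrichment of 3.15, and at chr4:26968679-26968984, with 5.89. The first 2 from 27 Mb, at chr4:27635630-27635989 and chr4:27640283-27640583, had fold enrichments of 4.55 and 4.04. The 4 lines between 27 and 28 Mb had a median background of 7.28 tags. In the next Mb, which holds the 2 clusters, it was 82.0 tags. In the bin from 30 to 35 Mb, 1 of 20 lines was strong. Between 30 and 34 Mb, a range not set in advance, none of 17 lines was strong.

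The median pileup was 30 tags from 27 Mb (27 to 34) and 32 tags below 27 Mb (28 to 36). The difference of -2 tags had an interval of -9 to 6, which included 0. Without the 2 clusters it was -5 tags (-10 to 2). With the split at 30 Mb, which places the 2 clusters below the split, it was -9 tags (-14 to -2). Among lines under 1.5 times the genome-wide background it was -6 tags (-12 to -1). The last 2 intervals excluded 0. Over all lines, 24 of 163 from 27 Mb reached 100 tags (14.7%, 10.1 to 21.0%), against 5 of 113 below 27 Mb (4.42%, 1.90 to 9.94%). In the whole list 6.67% did so. Of the 24 lines, 17 lay in the 2 clusters, so no difference at the upper end was shown outside them. The intervals had a median length of 244.5 bp from 27 Mb and 260 bp below it (241 to 281 bp), where the interval of the first, 236 to 262 bp, overlapped that of the second. The longest interval from 27 Mb was 696 bp and the longest below 27 Mb was 592 bp.

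The input background, in contrast, was higher and much more spread from 27 Mb. Its median was 8.43 tags from 27 Mb (7.67 to 9.81) and 6.90 tags below 27 Mb (6.47 to 6.99). Among the other 24 chromosomes, the median from 27 Mb ranged from 5.99 to 7.74 tags, below the value of chromosome 4. Without the 2 dense clusters, the median from 27 Mb on chromosome 4 was 7.67 tags (7.30 to 8.43), within that range. The difference from the part below 27 Mb was then 0.767 tags, against 1.53 tags over all lines. Below 27 Mb no line of chromosome 4 exceeded a background of 12.3 tags. From 27 Mb the highest reached 213 tags. A background of 28.2 tags or more, which is 5-fold the genome-wide value, is called high here. It was found at 3.89% of the list, at 29 of 163 lines from 27 Mb (17.8%, 12.7 to 24.4%), and at 0 of 113 lines below 27 Mb, where the upper Wilson limit was 3.29%. Intermediate values, from 1.5 to under 5 times the genome-wide level, were found at 16.4% of the list, at 49 lines from 27 Mb (30.1%, 23.5 to 37.5%) and at 14 lines below 27 Mb (12.4%, 7.53 to 19.7%).

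The 29 lines of chromosome 4 at high background were the highest number on any chromosome, the next being chromosome 20 with 28. As a share of lines, however, chromosome 4 with 10.5% was second to chromosome 20 with 14.1% and near chromosome 5 with 9.85%. Their median pileup was 135 tags and their median fold enrichment was 1.64, compared with 120 tags and 1.73 for the 123 such lines on the other numbered chromosomes. Only 4 of the 29 lay outside the 2 clusters, and these are named here after their values were seen. They were found at chr4:36410408-36410673, with 114 ChIP tags against 71.3 input tags, at chr4:39143447-39143670, with 200 against 117, at chr4:43970957-43971408, with 94 against 29.1, and at chr4:54522458-54522678, with 75 against 38.3. The third of these had a fold enrichment of 3.15, and the other 3 were below 2.

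**Figure D4:**
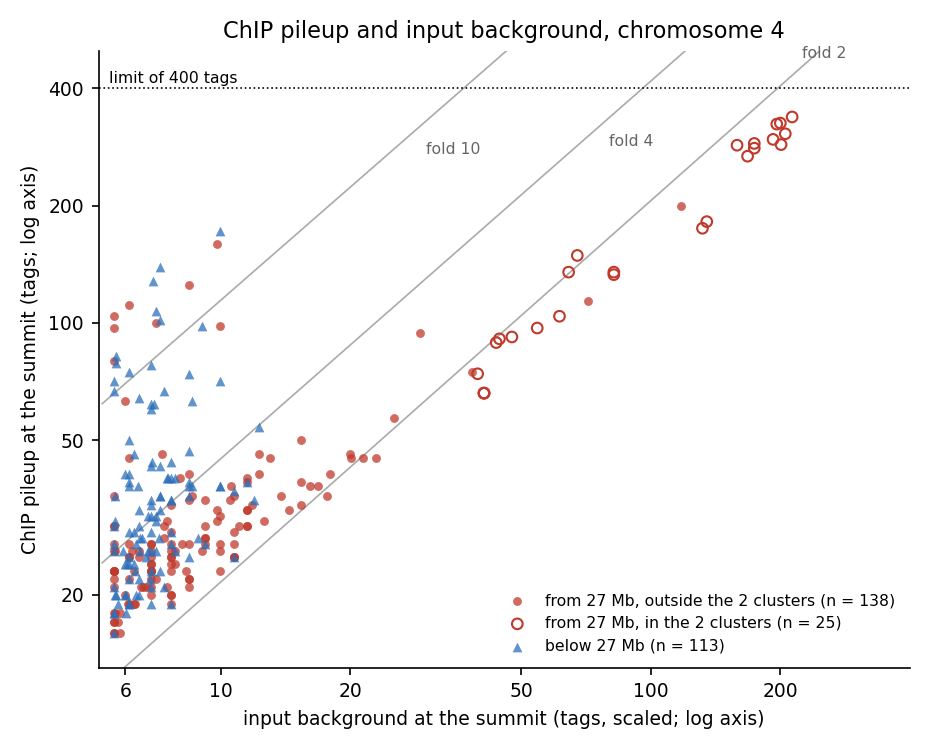
ChIP pileup against input background at each summit of chromosome 4, in tags on log axes, with lines of equal fold enrichment at 2, 4 and 10 and the limit of 400 tags. Lines below 27 Mb (triangles) stay at or under 12.3 background tags, while lines from 27 Mb (circles) reach 213 background tags. In the 2 clusters (open circles) the fold enrichment is 1.32 to 1.80 in the first and 1.60 to 2.19 in the second.

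To separate the background from the ChIP signal, lines under 1.5 times the genome-wide background were compared, a choice made after the data were seen. Such lines made up 79.7% of the list, 85 of 163 lines from 27 Mb (52.1%, 44.5 to 59.7%) and 99 of 113 lines below 27 Mb (87.6%, 80.3 to 92.5%). The median background was then 6.68 tags in both parts, but its spread was not matched. The genome-wide floor was reached by 22.4% of these lines from 27 Mb and by 8.08% below 27 Mb, and the quartiles were 5.76 and 7.67 tags from 27 Mb and 6.13 and 7.21 tags below 27 Mb. The median pileup was 24 tags from 27 Mb (23 to 26) and 30 tags below 27 Mb (27 to 35). Of these lines 30 from 27 Mb were strong (35.3%, 25.97 to 45.9%) and 65 below 27 Mb were strong (65.7%, 55.9 to 74.3%). The difference of -30.4 percentage points (-43.1 to -15.9) was as large as that over all lines. Within this range of background, the lines from 27 Mb had the lower median pileup and the lower strong share. The q-value and the fold enrichment are both computed from pileup and background, so these contrasts are not separate results. The part of the remaining background differences in the lower pileup and strong share was not tested. On the other numbered chromosomes, lines at such a background had a median pileup of 29 tags and 61.8% were strong (60.2 to 63.4%), values close to those of chromosome 4 below 27 Mb.

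The 2 dense clusters were located just past 28 Mb and held the highest pileups of the chromosome. The first, at chr4:28001875-28017207, contained 12 intervals within 15333 bp, with midpoints 592 to 2399.5 bp apart and a median spacing of 1395 bp. Its pileups ranged from 175 to 338 ChIP tags, with a median of 288, against an input background of 132 to 213 tags, with a median of 183. The 3 highest pileups of the part belonged to it, with 338 tags (303 to 376) against 213 input tags at chr4:28001875-28002463, 326 against 200.1 at chr4:28003060-28003271, and 324 against 196 at chr4:28008147-28008504. The fold enrichment of its lines was between 1.32 and 1.80, although 9 of 12 were strong.

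The second cluster, at chr4:28178743-28195652, contained 11 intervals and 13 lines within 16910 bp, with midpoints 346 to 3121.5 bp apart and a median spacing of 1352 bp. It was 162 kb further along. Its pileups were lower, from 66 to 149 ChIP tags, against an input background of 39.6 to 82.0 tags. The fold enrichment ranged from 1.60 to 2.19, and 5 of 13 lines were strong. No line was found between the 2 clusters, and the next summit after the second was 1510 kb away, the third longest gap of the chromosome.

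At most 1 tag per position and strand was kept, so a pileup cannot exceed 400 tags, and high values are compressed. The highest pileup of the first cluster reached 84.5% of this limit and the highest input background, 278 tags before scaling, reached 69.5%. After correction for the limit, the fold enrichment was between 1.33 and 2.24 in the first cluster and between 1.63 and 2.43 in the second, still below that of 4 or more seen at 52.2% of lines below 27 Mb. Whether the high input background had a part in these calls was not tested.

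**Figure D5:**
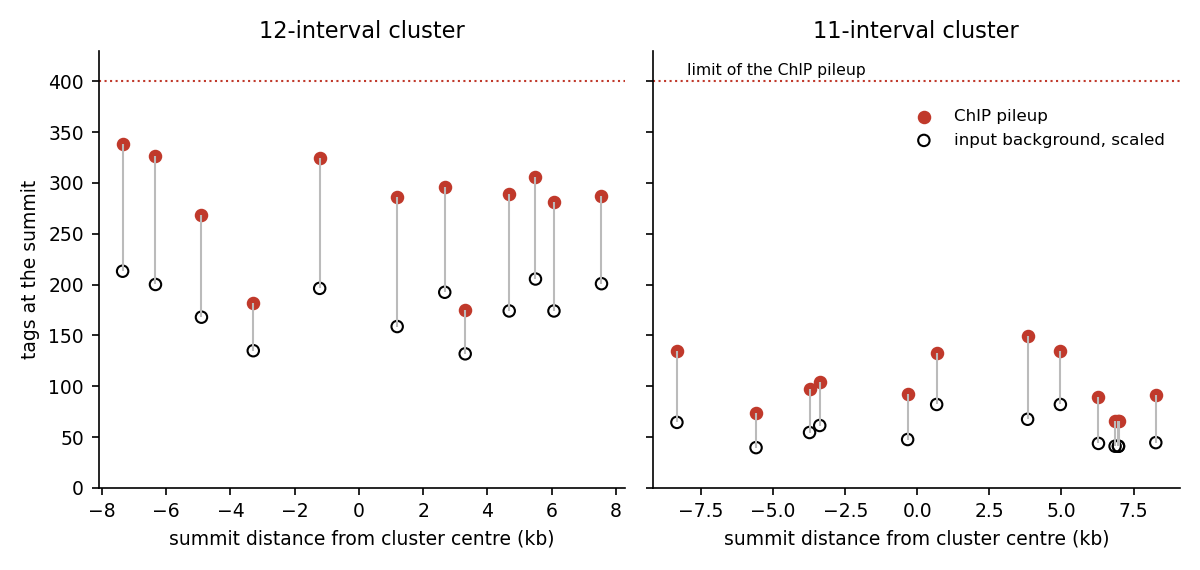
ChIP pileup (filled circles) and scaled input background (open circles), in tags, at each summit of the 2 dense clusters, by distance from the cluster centre in kb. In the 12-interval cluster the ChIP pileups of 175 to 338 tags stand over 132 to 213 input tags, and in the 11-interval cluster 66 to 149 ChIP tags stand over 39.6 to 82.0 input tags.

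Neighbouring intervals were compared with and without these clusters. The median distance to the nearest interval was 46.8 kb from 27 Mb (41.2 to 68.8) and 71.4 kb below 27 Mb (64.6 to 87.4). Of all intervals of the list, 19.9% had another within 10 kb. This was the case for 39 of 158 intervals from 27 Mb (24.7%, 18.6 to 32.0%) and for 20 of 113 below 27 Mb (17.7%, 11.8 to 25.8%). The difference of 6.98 percentage points had an interval of -3.11 to 16.4. When the 2 clusters were left out, 16 of 135 intervals from 27 Mb had such a neighbour (11.9%, 7.43 to 18.4%) and the median distance was 68.8 kb. The difference at 10 kb was then -5.85 percentage points (-15.0 to 2.98), so that its direction turned, while neither interval excluded 0. At 50 kb, where 44.2% of intervals of the list had a neighbour, the shares were 84 of 158 from 27 Mb (53.2%, 45.4 to 60.8%) and 45 of 113 below 27 Mb (39.8%, 31.3 to 49.0%). This difference of 13.3 percentage points had an interval of 1.29 to 24.8, which excluded 0. Without the clusters, 60 of 135 intervals from 27 Mb had a neighbour within 50 kb (44.4%, 36.3 to 52.9%), which overlapped the interval of the share below 27 Mb.

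Outside the clusters, intervals within 10 kb formed 8 pairs from 27 Mb, and 7 pairs and 2 groups of 3 below 27 Mb. All 9 groups below 27 Mb contained a strong line, against 5 of the 8 pairs from 27 Mb. A 4-fold enrichment was reached in 3 of the 8 pairs from 27 Mb and in all 7 pairs below 27 Mb. Among single lines outside the clusters, 33.3% from 27 Mb and 66.4% below 27 Mb were strong. A 4-fold enrichment was reached by 14.5% and 52.2% of them. In the whole list, 59.2% of lines were strong and 43.5% reached 4-fold. As each group holds several lines, these counts of groups were not read as a result about paired peaks. One of the groups of 3 below 27 Mb, at chr4:758458-761563, contained 3 intervals within 3106 bp, with a median background of 6.90 tags and fold enrichments from 3.22 to 7.72. Neither part was free of long gaps. The longest was 2017 kb, between summits at 21517365 and 23533985, and the longest from 27 Mb was the gap of 1510 kb that followed the second cluster.

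Leaving out the clusters did not remove the contrasts in strong share and fold enrichment. Of the remaining 138 lines from 27 Mb, 46 were strong (33.3%, 26.01 to 41.6%), against 66.4% below 27 Mb, and the median fold enrichment was 3.00 against 4.10. The density of lines from 27 Mb was then 3.95 per Mb, against 4.26 per Mb below 27 Mb, and that of strong lines was 1.32 per Mb, against 2.83 per Mb. When lines at high background were left out on every chromosome, the density of chromosome 4 was 4.02 per Mb, still the highest of the 25 but close to the 4.01 per Mb of chromosome 11. The share of lines at high background was 2.90% from 27 Mb without the clusters (1.13 to 7.22%).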

How the data were processed

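One RARaa-myc ChIP and 1 input library from zebrafish embryos were analysed, grouped by the antibody label. By the study's methods, the authors aligned the reads to Zv9 using bowtie2, and the peaks were called over the input by MACS2 (2.1.1.20160309). Per the file headers, the q-value limit was 0.05, the effective genome was 1400000000 bp, and each 41 bp tag was extended to 200 bp. Duplicates were reduced to 1 tag per position and strand. The version of bowtie2 and the treatment of reads with several matches are not given in the sources used here. The deposited pileup is a signal in ChIP tags, the deposited fold enrichment is a ratio of pileup to local input background with a pseudocount of 1, and the deposited −log10 p-value and its adjusted form, the −log10 q-value, are those of a Poisson model.

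The background was recovered from pileup and fold enrichment, and was checked by recomputing each Poisson p-value (largest relative difference 0.00427% over the list). Neighbour distances were taken between midpoints of distinct intervals, which were joined into clusters within 10 kb. Densities used the span between the first summit, the 27 Mb split and the last summit. Intervals are Wilson (shares), exact Poisson (tags, densities), binomial rank (medians), Newcombe (differences of shares) and exact conditional (ratios of densities), and they cover counting error only. For a fold enrichment, the limits are the Poisson limits of the pileup over a fixed background, without the error of the input. For a difference of medians, the limits are the extremes that the 2 rank intervals allow. With 1 library a group, no test was made. The functions were tested on simulated data. Python 3.11.15, pandas 2.3.3 and scipy 1.17.1 were used.

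The members, the split and the lists were chosen with earlier results of these data known. Peaks were named by rule: the 5 highest fold enrichments and 3 highest pileups of each part, clusters of at least 5 intervals, the 2 summits on each side of the split, and peaks assigned to a named gene in a table of the study. Other peaks were chosen after their values were seen. A Zv9 genome was not used here.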

Additional observations from a re-analysis of the deposited data

How the results depend on the processing

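No paired analysis was possible because each group held a single library, which also meant that leaving out a replicate could not be done. The alternatives without the 2 clusters and at low input background were chosen after the data were seen. Of 78 alternatives, 57 left a value within the interval of the result or, for counts without an interval, within a fixed factor of the main count. In addition, 1 reversed a difference whose interval excluded no difference. The lower strong share and the lower median fold enrichment from 27 Mb kept their direction and stayed within their intervals under all alternatives run. The strong-share difference ranged from -33.5 to -26.3 percentage points, except that it was -39.9 for a fold enrichment of at least 4. The difference in fold enrichment ranged from -1.41 to -0.627.

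With the split at 30 Mb, the 2 clusters fall below the split. The difference in the share of lines at high background was then -14.3 percentage points, the reversed value, against 17.8. The density ratio was 0.848, the difference in neighbour share -20.8 percentage points and that in median background 0.644 tags. With strong lines only, the density ratio was 0.608, the neighbour difference 20 and the high-background difference 26.7 percentage points, with 135 lines on the chromosome and 22 in the fullest bin, against 276 and 35. Without high-background lines the neighbour difference was -5.49, and without the 2 clusters it was -5.85, with a high-background difference of 2.90 percentage points. At low background the density ratio was 0.653, the neighbour difference -8.43 percentage points, the median neighbour distance 36.8 kb longer from 27 Mb, and the background difference 0. Counting each cluster once gave a high-background difference of 4.65, and a threshold of 10 times gave 11.7. Joining within 5 kb gave 10 clusters and within 50 kb 47, against 19, of which 4 at 50 kb had at least 5 intervals, against 2. For these values the cause was not tested. Depth limits the weakest lines most, with a pileup as low as 16 tags (9.15 to 25.98).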
